A study of Homo sapiens with 6 samples.

Results

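HBEGF, EGR1, DUSP1 and IL11 are 4 genes whose transcripts are induced through mitogen-activated protein kinase (MAPK) signalling in many cell types. They were taken by symbol from the authors' deposited table of log ratios, in which each had 1 entry, so they make up 4 of the 634 genes that could be named there and 4 of its 724 entries. All 4 were listed lower in cells with a hairpin against LOXL2. The study used MDA-MB-231, an established human breast cancer line with mesenchymal features. Cells of the shLOXL2 group (3 arrays) had been infected with a lentivirus carrying a short hairpin against LOXL2, a secreted lysyl oxidase, and cells of the shControl group (3 arrays) with a lentivirus carrying a control hairpin. Both groups therefore carry a lentivirus, and the labels name 1 hairpin per group, with no time after infection and no statement on whether replicates were separate cultures. The source name of shControl replicates 2 and 3 says shLOXL2, against their title and knockdown field, and they were kept as controls.

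In this pathway a ligand such as HBEGF binds the EGF receptor, and the kinases RAF, MEK and ERK are activated in turn. ERK then phosphorylates ETS-family partners of serum response factor, and genes such as EGR1 are transcribed within minutes without new protein synthesis. Phosphatases of the DUSP family, themselves induced, remove phosphate from the kinases and end the response. Later outputs include secreted factors such as IL11, which in breast cancer cells is also known as a TGF-beta target linked to bone metastasis.

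The stretches just before the gene starts are shown because immediate early regulation is best known from such sequence. RefSeq (build GRCh38.p14) gave promoters for all 4 genes, and the 250 bases before each start are printed 5′ to 3′ on the gene's strand. Capitals mark matches to the CArG box (the site of serum response factor), to TGACG (the shorter core of the cyclic AMP response element, CRE, called a CRE core here), to TGANTCA (AP-1) and to TATANA (TATA box), searched on both strands. The full CRE, TGACGTCA, holds 2 overlapping TGACG matches and was counted separately. These motifs were chosen with the sequences in view. The HBEGF stretch is chr5:140346604-140346853 (minus strand), the EGR1 stretch chr5:138465229-138465478 (plus strand), the DUSP1 stretch chr5:172771196-172771445 (minus strand) and the IL11 stretch chr19:55370464-55370713 (minus strand).
HBEGF: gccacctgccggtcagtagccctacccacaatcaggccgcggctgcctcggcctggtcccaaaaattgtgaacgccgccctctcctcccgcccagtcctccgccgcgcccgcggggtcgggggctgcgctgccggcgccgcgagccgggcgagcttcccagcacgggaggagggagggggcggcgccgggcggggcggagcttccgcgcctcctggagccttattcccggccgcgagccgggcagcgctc
EGR1: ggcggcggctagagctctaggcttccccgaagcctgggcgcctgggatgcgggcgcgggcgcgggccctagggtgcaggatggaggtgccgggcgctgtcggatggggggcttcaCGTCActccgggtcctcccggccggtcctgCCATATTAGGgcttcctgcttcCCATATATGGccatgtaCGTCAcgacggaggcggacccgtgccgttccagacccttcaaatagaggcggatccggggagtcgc
DUSP1: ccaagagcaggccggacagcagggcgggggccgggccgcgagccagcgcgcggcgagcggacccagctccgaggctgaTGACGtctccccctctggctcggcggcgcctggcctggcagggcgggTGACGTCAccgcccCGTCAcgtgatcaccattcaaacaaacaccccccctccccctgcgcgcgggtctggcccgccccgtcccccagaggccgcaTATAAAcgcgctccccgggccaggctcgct
IL11: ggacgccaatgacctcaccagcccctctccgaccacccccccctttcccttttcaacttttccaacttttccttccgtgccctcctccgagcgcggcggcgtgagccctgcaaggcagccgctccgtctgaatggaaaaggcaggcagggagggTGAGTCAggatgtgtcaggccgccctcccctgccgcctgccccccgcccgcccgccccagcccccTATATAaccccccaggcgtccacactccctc

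The 4 stretches held different motifs. EGR1 had 2 CArG boxes, CCATATTAGG from 105 to 96 bases and CCATATATGG from 83 to 74 bases before the start, and 2 TGACG matches. Of 27303 promoters of the same length, 1.14% held at least 1 CArG box, and 9 promoters, EGR1 among them, held 2 or more. DUSP1 had 1 full CRE, from 125 to 118 bases before the start, with 4 TGACG matches in all and a TATA box. The full CRE was found in 1.77% of all promoters and TGACG in 21.7%. IL11 had 1 AP-1 match, TGAGTCA, from 96 to 90 bases before the start, which 6.6% of all promoters held, and a TATA box, held by 18.3%. HBEGF had none of these letters in this window, and 5 matches to the GC box GGGCGG, which is not in capitals and which 42.3% of all promoters held. DUSP1 and IL11 had 4 GC boxes each and EGR1 none. Of the 15841 promoters of protein-coding genes, 1.14% held a CArG box, 2.32% the full CRE and 25.6% TGACG. An AP-1 match was held by 5.04% of them, a TATA box by 14.7% and a GC box by 56%. All 4 stretches were richer in G and C than the median of all 27303 promoters (58%). They stood at 76.4% in HBEGF, 68.4% in EGR1, 74.4% in DUSP1 and 67.2% in IL11. That median includes promoters of non-coding genes, and a median for protein-coding genes alone was not taken. A match is a description of letters, and binding was not measured in this study.

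**Figure D1:**
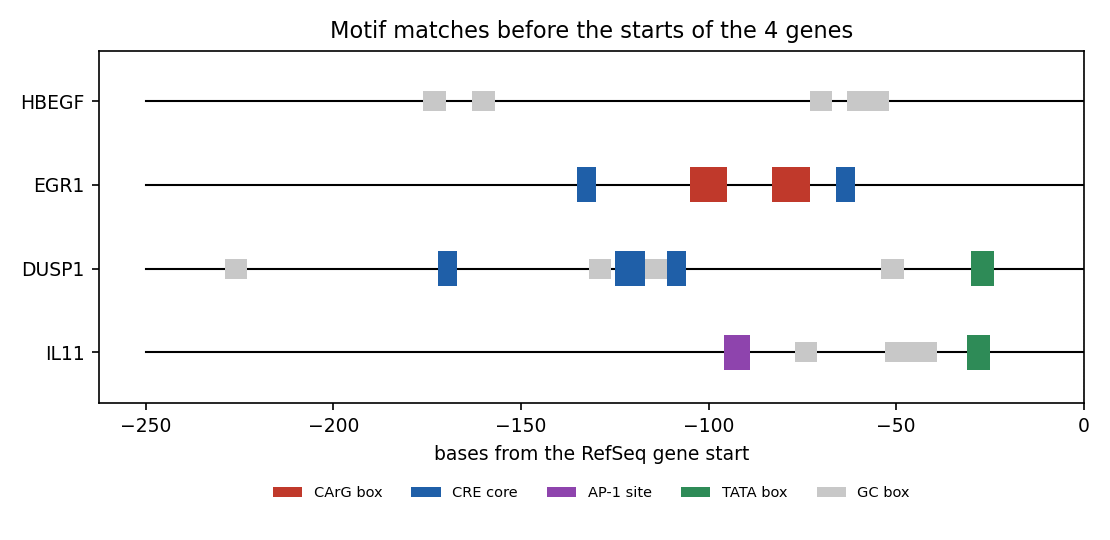
Motif matches in the 250 bases before the RefSeq start of each gene, drawn to scale with distance from the start on the x axis; each bar spans 1 match on either strand. CArG boxes are found in EGR1, an AP-1 match in IL11, CRE cores in EGR1 and DUSP1, and GC boxes alone in HBEGF.

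HBEGF, the membrane-anchored EGF receptor ligand that is released by shedding proteases, had the lowest value of the 4, at -1.13 in the authors' deposited table. It was 16th from the lowest of all 724 entries in the authors' deposited table. EGR1, a zinc finger transcription factor of the immediate early class, was listed at -0.969 and was 32nd from the lowest in the authors' deposited table. DUSP1, a nuclear phosphatase of the MAP kinases, was listed at -0.928 and was 41st in the authors' deposited table. IL11, which signals through gp130 like IL6, stood at -0.754 in the authors' deposited table, tied with LRRC59 in place 97. HBEGF and EGR1 were 0.159 apart with 15 entries between them, EGR1 and DUSP1 0.041 apart with 8 between them, and DUSP1 and IL11 0.174 apart with 55 between them. The authors' deposited table gives no replicate error, so whether neighbours in this order differ beyond their spread cannot be said. These values chose the genes and are given as a description. Of all entries in the authors' deposited table, 43.1% had a negative sign, and of the named genes likewise 43.1%, beside which the count of 4 of 4 is read no further because the genes were picked from that comparison.

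Lower entries of the authors' deposited table had a median of -0.664, and the 4 genes one of -0.949. HBEGF was among the lowest 5.13% of the 312 lower entries of the authors' deposited table, EGR1 among the lowest 10.3%, DUSP1 among the lowest 13.1% and IL11 among the lowest 31.4%. The smallest size in the authors' deposited table was 0.537, so genes with a smaller log ratio have no entry. With no selection rule stated, genes with a larger one may lack an entry too. LOXL2, the target of the hairpin, was lowest at -3.04 in the authors' deposited table, and the sign of the table was read from it. The header gives no log base. If the values are log2, those of the authors' deposited table are 2.19-fold lower for HBEGF, 1.96-fold for EGR1, 1.90-fold for DUSP1 and 1.69-fold for IL11 in shLOXL2 cells. If they are natural logs, the authors' deposited table gives 3.09-fold, 2.64-fold, 2.53-fold and 2.13-fold. The 1 probe set that passed on the arrays, described below, differed by -3.08 in log2. The LOXL2 value of -3.04 in the authors' deposited table is near that difference only if read as log2. That probe set is unnamed, so this alone does not settle the base. In these bulk samples, fewer cells that express a gene and less RNA per cell cannot be told apart.

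**Figure D2:**
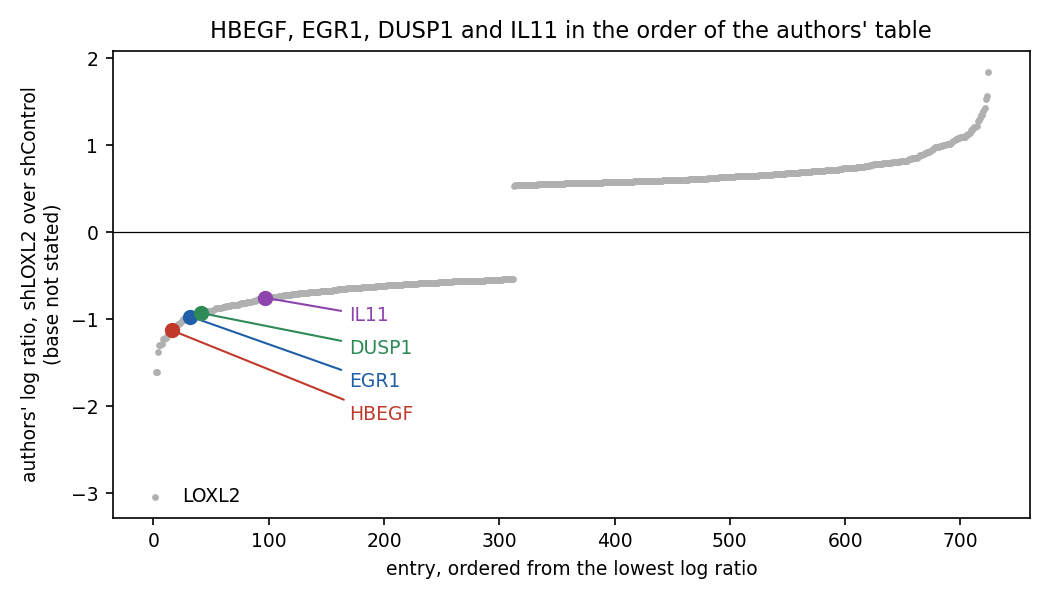
Log ratio of each of the 724 entries of the authors' deposited table (y axis, base not stated) against its place from the lowest (x axis), with the 4 genes in colour. HBEGF, EGR1 and DUSP1 lie on the steep end at -1.13, -0.969 and -0.928, IL11 lies on the flatter part at -0.754, and LOXL2 is lowest at -3.04.

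Each gene stood at or next to the low end of its own protein type, as the authors' deposited table annotates it. This comparison was chosen after the values had been seen. The authors' deposited table held 9 growth factors, 8 of them lower, and HBEGF ranked 2 from the lowest, after the matricellular factor CTGF (CCN2) at -1.23. Below 0 in the authors' deposited table were also the growth factors GMFB at -1.06, TGFB2 at -0.831, the activin subunit INHBA at -0.718, FGF5 at -0.673, BDNF at -0.611 and PDGFC at -0.59. GDF15, a stress-induced factor, was the growth factor listed higher, at 0.59 in the authors' deposited table. IL11 stood against its type. It was the lowest of 14 cytokine entries in the authors' deposited table, of which 12 were listed higher, up to the T cell chemokine CXCL10 at 1.84. The other cytokine listed lower in the authors' deposited table was TNFSF15 at -0.628, and EBI3, a subunit shared by IL27 and IL35, was listed higher at 0.541.

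Among the 41 entries for transcription regulators in the authors' deposited table, 16 had negative values, and EGR1 ranked 2 from the lowest after ANKRD1 at -0.971. DUSP1 was the lowest of 8 phosphatases in the authors' deposited table, 4 of which had negative values. The cell cycle phosphatases CDKN3 and CDC25C were on the other side, at 1.18 and 1.00 in the authors' deposited table, while the tyrosine phosphatases PTPN12 and PTPN22 were listed at -0.773 and -0.745. By location, the authors' deposited table annotates 182 entries as nuclear, 34 of them listed lower (18.7%), and EGR1 and DUSP1 ranked 1 and 2 from the lowest of these. The authors' deposited table held 60 extracellular entries, 30 of them lower, and HBEGF ranked 4 and IL11 ranked 15 from the lowest.

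**Figure D3:**
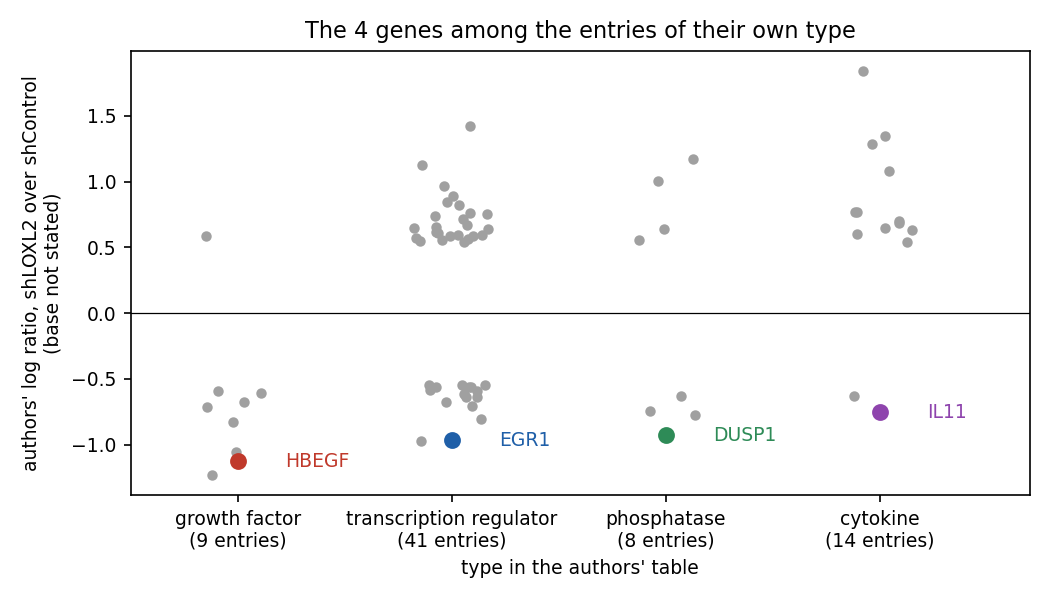
Log ratio (y axis, base not stated) of every entry that the authors' deposited table annotates as growth factor (9 entries), transcription regulator (41), phosphatase (8) or cytokine (14), 1 point per entry, with the 4 genes in colour. DUSP1 and IL11 are the lowest points of their types and HBEGF and EGR1 the second lowest, and 12 of 14 cytokine points lie above 0.

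Few other genes of the pathway had entries, as held for genes in general. Of 113 other genes in 8 lists covering the pathway from ligands to targets, 2 had an entry in the authors' deposited table, each of them lower. That is 1.77% of these genes, beside 2.94% of all 20056 protein-coding genes of RefSeq (590 with an entry), so nothing about the pathway is read from the count. They were ELK3, an ETS-family partner of serum response factor, at -0.707, and ETV5, an ETS factor transcribed in response to ERK, at -0.618 in the authors' deposited table. None of the 10 other EGF family ligands, among them AREG, EREG and TGFA, had an entry analysed here, nor did any of 9 ERBB receptors and shedding proteases. None of 24 other immediate early factors, including FOS, JUN, EGR2 and EGR3, had an entry analysed here. The same held for 19 other feedback genes, including DUSP4, DUSP5, DUSP6 and the SPRY genes, and for the 17 other genes of a list of IL6 family cytokines, receptors and signal transducers, which included IL6, LIF, IL11RA and IL6ST. That list did not hold every relative. The gp130-type receptors IL31RA and IL27RA, looked up after their values were seen, stood at -0.812 and -0.589 in the authors' deposited table. EBI3, the IL27 subunit named above and looked up in the same way, went the other way at 0.541 in the authors' deposited table. None of 7 proteins that bind AU-rich elements, which control the decay of immediate early transcripts, was listed. Of 21 genes of the cascade that leads to ERK ELK3 was the one listed, and of 11 transcripts used as readouts of MAPK activity ETV5 was the one listed. Because no selection rule is stated, absence from the table shows neither the level of a gene nor the size of its change.

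The genes closest in log ratio to each of the 4, over this 1 contrast, came from varied families. Next to HBEGF in the authors' deposited table stood an unannotated entry AHK at -1.15, the reticular calcium-binding protein RCN2 at -1.13, the lipopolysaccharide receptor TLR4 at -1.12 and CYR61 (CCN1), a matricellular protein, at -1.09. Next to EGR1 were EIF5AL1 at -0.975, ANKRD1 at -0.971, the BMP co-receptor RGMB at -0.962 and ANO10 at -0.96 in the authors' deposited table. DUSP1 stood between FAM138B at -0.934 and LOC100133106 at -0.931 on the lower side and the metallothionein MT1E at -0.926 and the small nucleolar RNA SNORA36A at -0.918 on the higher side of the authors' deposited table. IL11 was next to ARHGAP22 at -0.758, SNORD56B at -0.756, LRRC59 at -0.754 and DSEL at -0.753 in the authors' deposited table. A like log ratio in 1 contrast is the whole of this measure.

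Marker genes gave little on the cells themselves. Of 6 genes known to be expressed in MDA-MB-231, CAV1 was in the authors' deposited table, at -0.985. Of 7 genes known to be low or absent in this line, the epithelial adhesion molecule EPCAM was there, listed higher with entries of 0.671 and 0.59 in the authors' deposited table. None of 10 markers of blood, endothelial, stromal and liver cells had an entry analysed here. With levels of named genes not analysed here, the cell line could not be checked against its markers, and the part of these markers in the values of the 4 genes was not tested.

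The arrays show the error that differences of these sizes carry over all probe sets together. They hold log2 values for 32321 probe sets identified by number, which no source used here pairs with genes, so HBEGF, EGR1, DUSP1 and IL11 have no value per array here. Array medians were 5.74 to 5.82, the median SD within a group was 0.198 (n = 3 per group) and the median SE of a group difference 0.158. Differences of group means at or below the HBEGF value, if that is log2, were found for 53 probe sets, at or below the EGR1 value for 95, the DUSP1 value for 114 and the IL11 value for 258 (0.798% of all). The count of 258 was 433 without shLOXL2 replicate 2, 513 without shControl replicate 3 and 1291 with shControl replicate 1 as the one control. By limma with Benjamini-Hochberg adjustment over all probe sets, 1 of 32321 passed an adjusted p of 0.05 (0.00309%). Its difference was -3.08, and 0 passed by limma when any 1 of the 6 arrays was left out, with 1063 to 2250 probe sets then at an unadjusted p under 0.05.

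Probe sets with differences like those of the 4 genes did not pass, and many of them overlapped between the groups. Within 0.05 of the HBEGF value there were 15 probe sets, with SE of 0.150 to 0.660 and unadjusted p of 0.000162 to 0.122 by limma, and the lowest adjusted p was 0.547. In 9 of these 15 all 3 shLOXL2 arrays lay below all 3 shControl arrays, where 6.21% of all probe sets did so. These probe sets were picked by their difference, so a higher share than that follows from the choice. Near the EGR1 value 23 of 42 probe sets did not overlap, and near the DUSP1 value 30 of 55. Near the IL11 value 57 of 120 (47.5%) did not overlap, and unadjusted p by limma ran from 0.000349 to 0.353 with a median of 0.0352. In the fit with replicate number as a block, the median unadjusted p by limma went from 0.0173 to 0.00331 near the HBEGF value and from 0.0352 to 0.0105 near the IL11 value, and the lowest adjusted p near any of the 4 values was 0.358. Over all probe sets the block took the number at an unadjusted p under 0.05 from 1781 to 2964, again with 1 call. A difference of the size listed for IL11 thus came with overlapping groups in 63 of 120 probe sets. Which of these, if any, measures one of the 4 genes is not known. Whether some are array controls and not probe sets of genes is not known either, so the error of gene probe sets alone may differ.

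**Figure D4:**
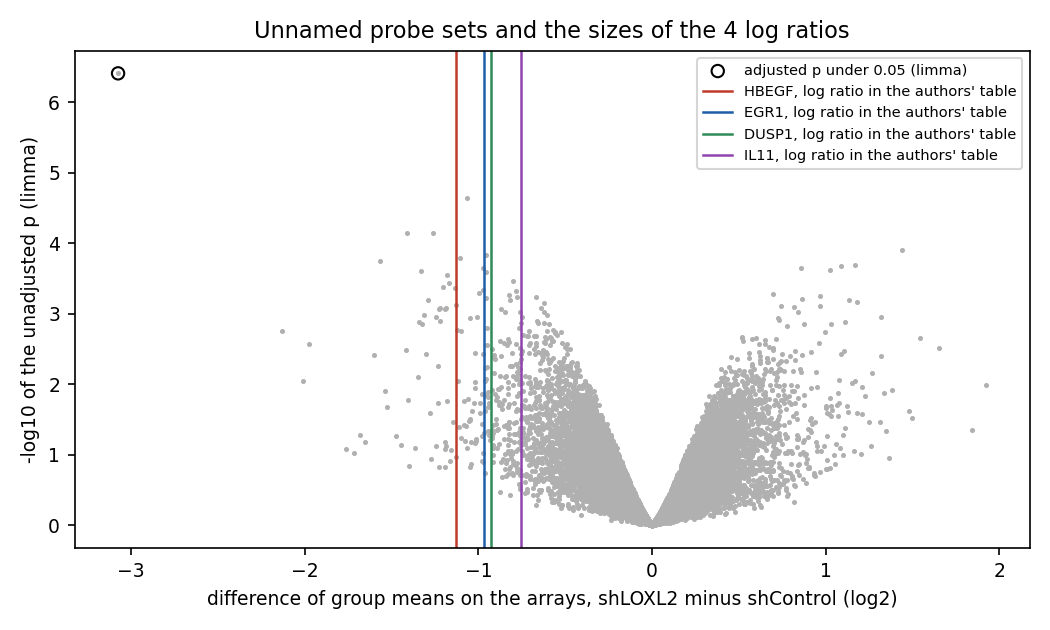
Difference of group means (x axis, log2, shLOXL2 minus shControl, 3 arrays each) and unadjusted p by limma (y axis, -log10) for the 32321 unnamed probe sets, with vertical lines at the log ratios of the 4 genes in the authors' deposited table, read as log2. The circled probe set is the 1 that passed an adjusted p of 0.05, and probe sets along the 4 lines spread over a wide range of p.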

How the data were processed

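Total RNA was hybridised to 6 arrays, and the deposited log2 values were made by the authors with RMA, per the submitters' processing notes. No source used here gives its version, the genome build or the annotation of the probes. The authors' deposited table of log ratios was exported from Ingenuity Systems software, per its header, with no base or selection rule. Decimal commas were converted and a leading question mark was read as minus, which left 0 breaks in the falling order of 724 entries. Entries were named through RefSeq symbols (672 entries, 634 genes), and entries of a gene were averaged. Some symbols, such as AHK, SERPI3, APC16 and GI2, look as if the letters NA had been lost, and they were left unnamed. The gene of mixed sign was left out of counts of genes.

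The planned values per array could not be given, because probe sets are unnamed. The limma package (version 3.58.1 under R 4.3.3) was run on the 32321 probe sets with group as its only term, and was tested on simulated data. Since the labels do not tell separate cultures from repeat arrays, the p-values may reflect technical spread alone. Deviations from group means correlated between same-numbered arrays at 0.354, 0.452 and 0.160, and between arrays of different number at -0.348 to -0.035. The numbers may thus pair the arrays. The labels do not say so, and with 3 arrays per group these correlations depend on each other, so pairing is not settled. The fit without the block was kept as planned and the blocked values stand beside it. Members and lists were chosen with earlier results of these data known. The genes named were the 4 members, list genes with an entry, 2 entries on each side of a member, and LOXL2; genes named by protein type were added after their values were seen.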

Additional observations from a re-analysis of the deposited data

How the results depend on the processing

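The log ratios of the 4 genes were the same from the ID column and the Symbol column, the list counts were the same with exact symbols alone, and the share listed lower was 43.1% over entries and over genes. Ranked over genes, HBEGF, EGR1, DUSP1 and IL11 were 13th, 26th, 32nd and 84th from the lowest. Read as log10, the authors' deposited table would give 13.4-fold, 9.31-fold, 8.47-fold and 5.68-fold lower. Under that reading LOXL2 would lie far below the -3.08 (log2) of the called probe set, which is unnamed. On the arrays, limma called 1 probe set under quantile normalization, median centring, the filter at the median level, trend and robust moderation and in the fit with the replicate block, which gave 1 call and raised the number at an unadjusted p under 0.05 from 1781 to 2964. At the stricter threshold of 0.01 it called 0, while 1781 probe sets had an unadjusted p under 0.05. With the single control shControl replicate 1, taken to vary as the other arrays do, it called 0 (3975 unadjusted). Leaving out 1 array gave 0 to 0 calls (1063 to 2250 unadjusted). The 258 probe sets with a fall of the IL11 size went to 234 after quantile normalization, 217 after median centring, 108 above the median level, 264 to 513 with 1 array left out and 1291 with shControl replicate 1 alone. The causes were not tested. The number of arrays limits all of these.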

Other observations

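EGR1, HBEGF and DUSP1 lie on chromosome 5 and IL11 on chromosome 19. In RefSeq, 24 protein-coding genes separate EGR1 from HBEGF and 242 separate HBEGF from DUSP1. The authors' deposited table held 42 genes of chromosome 5, of which 17 were lower and 25 higher (40.5% lower, against 43.1% of all genes). The closest listed neighbours of EGR1, within 20 protein-coding genes on either side, went the other way. They were the mitotic kinesin KIF20A at 1.39, the mitotic phosphatase CDC25C at 1.00 and PAIP2 at 0.649 in the authors' deposited table. Around HBEGF, PAIP2 and the respiratory chain subunit NDUFA2 (0.742) were listed higher and the histidyl-tRNA synthetase HARS1 lower (-0.902) in the authors' deposited table. DUSP1 had no listed neighbour in that window. IL11 had UBE2S, an enzyme of the anaphase-promoting complex pathway, with entries of 0.626 and 0.64 in the authors' deposited table.

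The motifs of the 4 genes were also counted in the promoters of the listed genes, as a description with no test. A promoter stretch was at hand for 191 of the 273 genes listed lower and 296 of the 360 listed higher. The counts for genes listed lower include the 4 genes themselves. EGR1 is thus counted under the CArG box, DUSP1 under the full CRE and IL11 under AP-1. A CArG box was found in 3 of 191 genes listed lower (1.57%) and in 3 of 296 listed higher (1.01%), and EGR1 was the gene listed lower that had 2. The full CRE of DUSP1 was found in 2 of 191 genes listed lower (1.05%) and in 7 of 296 listed higher (2.36%). The AP-1 letters of IL11 were found in 13 of 191 (6.81%) and 14 of 296 (4.73%). The GC box of HBEGF, DUSP1 and IL11 was found in 59.2% and 68.2%. Among promoters of all protein-coding genes, the shares of these motifs were 1.14%, 2.32%, 5.04% and 56%, in the same order. TGACG, held by EGR1 and DUSP1, was found in 23.6% of genes listed lower and 31.4% of those listed higher (25.6% of protein-coding genes). The TATA box, held by DUSP1 and IL11, was found in 18.8% and 14.9% (14.7% of protein-coding genes).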
